A study of Saccharomyces cerevisiae with 15 samples.

Results

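The 10 yeast genes of glucose uptake and glucose sensing followed here were the hexose transporter genes HXT1, HXT2, HXT3, HXT4, HXT5, HXT6 and HXT7, the glucose sensor gene SNF3, and the regulator genes MTH1 and STD1. The list is set by their systematic identifiers and by no measured value, although it was drawn up with earlier results of these data known. They make up 10 of the 7127 identifiers counted in each of 15 libraries. The budding yeast cells came from UCC8773, a strain of the Mother Enrichment Program, and from a cth2 deletion derivative of it. CTH2, listed as TIS11, encodes an RNA-binding protein that promotes the decay of mRNAs with AU-rich elements when iron is scarce. In Mother Enrichment Program strains estradiol activates a recombinase made in daughter cells, which then stop dividing, so that a culture holds ageing mothers and arrested daughters.

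The cells compared were old cth2 deletion cells, young cth2 deletion cells, old wild-type cells and young wild-type cells. Old cells had been grown for 30 h and young cells for 2 h, in YPD, a rich glucose medium, with 1 uM estradiol for both ages and both strains. Cells carried a biotin label and were collected on magnetic beads, and lysates were made in cycloheximide. Each lysate was divided for RNA-seq of poly(A) mRNA and for ribosome profiling, which counts the mRNA fragments (footprints) shielded by 80S ribosomes. Each kind of cell had 2 libraries per assay, except RNA-seq of old cth2 deletion cells, which had 1. Nothing in the labels says that replicates were separate cultures, so p-values measure only the spread between these libraries, which may be technical. Whether the deletion strain was 1 clone or several is not given in the sources used here.

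Libraries held from 1629345 to 6198680 counts, so that 3 counts, the limit that a count of 0 allows, stood for 0.484 to 1.84 CPM (counts scaled to a common library total). TIS11 had 1 to 17 counts in the 7 cth2 deletion libraries and 28 to 516 counts in the 8 wild-type libraries, and within each age and assay every deletion library was below every wild-type library. The young libraries stood apart within each strain. Over 5391 genes, the log2 difference between the replicates of a group had an SD of 0.59 to 0.69 in young groups and 0.23 to 0.35 in old groups. Wild-type young replicate 1 and deletion young replicate 2 deviated the same way: the deviations of same-numbered young libraries of the 2 strains correlated at r = -0.73 in mRNA and r = -0.80 in footprints across these genes. Glucose-uptake genes were among those that differed, and age differences are therefore also given against each young library alone where the young replicates were far apart.

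Hexose enters yeast by facilitated diffusion through the Hxt proteins, a family of membrane carriers that differ in affinity. Snf3, a transporter-like membrane protein that transports no sugar, and its relative Rgt2 sense glucose outside the cell. Their signal leads, through the casein kinases Yck1 and Yck2 and the ubiquitin ligase subunit Grr1, to the destruction of Mth1 and Std1, the corepressors that the DNA-binding repressor Rgt1 needs to silence HXT genes. A second route, the kinase Snf1 and the repressor Mig1, holds down HXT2, HXT4, HXT6, HXT7, MTH1 and SNF3 when glucose is plentiful. Hxt1 and Hxt3 are low-affinity carriers used in abundant glucose, Hxt2 and Hxt4 have intermediate to high affinity, and Hxt6 and Hxt7 have high affinity and serve when glucose is scarce. Hxt5 is made in slowly growing and resting cells.

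The genes lie on chromosomes IV, VIII, XIII and XV of the R64 assembly, each in 1 coding exon with no overlapping annotated gene. HXT4 (YHR092C, chrVIII:287081-288811), HXT1 (YHR094C, chrVIII:290913-292625) and HXT5 (YHR096C, chrVIII:294669-296447) are neighbours on the minus strand. HXT7 (YDR342C, chrIV:1154216-1155928), HXT6 (YDR343C, chrIV:1159608-1161320) and HXT3 (YDR345C, chrIV:1162957-1164660) form another cluster on the minus strand. HXT2 (YMR011W, chrXIII:288079-289704) and SNF3 (YDL194W, chrIV:111580-114234) lie on plus strands, and MTH1 (YDR277C, chrIV:1014401-1015702) and STD1 (YOR047C, chrXV:416347-417681) on minus strands.

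The upstream sequences that carry most matches to the sites of both repressors are printed because these genes moved together or against each other in the libraries below. The 1000 bases before each start codon were searched on both strands for the Rgt1 site CGGANNA and for the Mig1 core, which is CCGGGG or CTGGGG or GCGGGG or GTGGGG. Matches are in capitals in these windows of 120 bases, read 5′ to 3′ on the strand of the gene. Those of HXT1 (chrVIII:293000-293119, minus strand) and HXT3 (chrIV:1164993-1165112, minus strand) hold Rgt1 sites and no Mig1 core. Those of HXT2 (chrXIII:287575-287694, plus strand), HXT4 (chrVIII:289200-289319, minus strand) and MTH1 (chrIV:1016233-1016352, minus strand) hold both. The HXT4 window lies inside the neighbouring reading frame AHT1.
HXT1: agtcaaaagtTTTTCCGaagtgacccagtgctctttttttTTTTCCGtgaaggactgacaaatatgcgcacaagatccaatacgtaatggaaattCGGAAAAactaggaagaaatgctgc
HXT3: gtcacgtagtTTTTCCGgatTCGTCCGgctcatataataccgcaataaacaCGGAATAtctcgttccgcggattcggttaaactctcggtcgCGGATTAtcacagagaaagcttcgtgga
HXT2: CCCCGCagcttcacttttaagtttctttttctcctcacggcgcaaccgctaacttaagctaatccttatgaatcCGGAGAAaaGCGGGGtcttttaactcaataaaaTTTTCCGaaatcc
HXT4: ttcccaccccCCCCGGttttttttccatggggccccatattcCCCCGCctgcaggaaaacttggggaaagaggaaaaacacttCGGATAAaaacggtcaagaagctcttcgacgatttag
MTH1: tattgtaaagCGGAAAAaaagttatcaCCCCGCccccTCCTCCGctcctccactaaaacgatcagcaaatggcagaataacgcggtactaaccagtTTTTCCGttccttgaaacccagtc

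HXT3 had 9 Rgt1 matches in its 1000 bases and HXT1 had 8, while only 0.0332% of 6021 genes had 8 or more and the median gene had 1. MTH1 and HXT5 had 4 each, a count reached by 3.47% of genes. HXT2, HXT4, HXT6 and STD1 had 3 each, HXT7 had 2 and SNF3 had 0, where 66.4% of genes had at least 1. Mig1 cores were most numerous before HXT2 and HXT4, with 4 each, a count reached by 0.847% of genes. HXT6 and MTH1 had 3, HXT1, HXT3, HXT7 and SNF3 had 2, HXT5 had 1 and STD1 had 0, where 41.9% of genes had any. The stress response element AGGGG, bound by Msn2 and Msn4, was found 5 times before HXT6, 4 times before HXT7 and 3 times before MTH1, and 0.631% of genes had 5 or more. In MTH1, 1 stress response element shared 1 base with an Rgt1 match, and no other matches of these motifs overlapped in the 10 genes. A match is a run of letters and not a measured binding site.

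**Figure D1:**
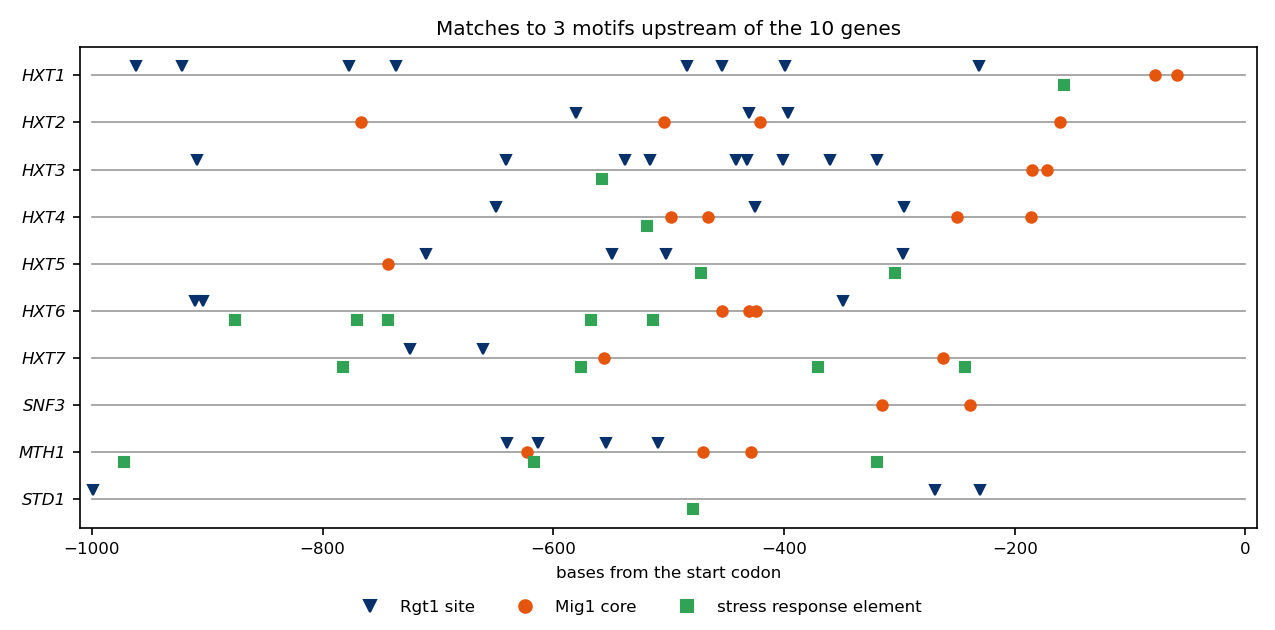
Positions of matches to the Rgt1 site (triangles), the Mig1 core (circles) and the stress response element (squares) in the 1000 bases before the start codon of each gene, with the distance of the first base of each match from the start codon on the horizontal axis. HXT3 and HXT1 carry the most Rgt1 matches (9 and 8), and SNF3 carries none.

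HXT6 and HXT7 are near copies, and this bears on every value given for them. Their coding sequences are 99.8% identical and differ at 3 bases, T1632C, G1666A and T1677C, written with the HXT6 base first and counted from 1 at the coding start. G1666A is the only one that changes a residue. The stretch around it is printed with that base in capitals to show how little tells the genes apart.
HXT6: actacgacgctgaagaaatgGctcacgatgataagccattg
HXT7: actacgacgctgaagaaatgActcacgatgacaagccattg
The 84 bases before the start codons were also identical. Only 3.97% of the 28-base windows and 4.93% of the 50-base windows of HXT6 or HXT7 occur once in the R64 genome, on either strand. The shares were 75.4% and 85.1% for HXT3 and 100% for MTH1, STD1 and SNF3. How reads that match both were assigned is not given in the sources used here, so the separate counts of HXT6 and HXT7 are uncertain.

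The 7 transporters differed widely in level, and HXT3 and HXT2 led in old cells. Levels of different genes are compared per length, in TPM (counts divided by coding length and scaled to a common total) computed from the deposited counts and lengths. In footprints, HXT3 averaged 674 ± 49.7 TPM and HXT2 463 ± 50.0 TPM in old deletion cells, and HXT2 averaged 465 ± 96.8 TPM and HXT3 450 ± 111 TPM in old wild-type cells (SD, n = 2 each). The order of HXT2 and HXT3 in old wild-type footprints was within their spread. HXT1 followed with 67.2 ± 8.84 TPM in old deletion cells and 85.3 ± 14.7 TPM in old wild-type cells, and HXT4 with 56.7 ± 3.93 and 69.5 ± 8.82 TPM (SD, n = 2 each). HXT1 lay above HXT4 without overlap in old deletion libraries, by little more than their spread, and the libraries of these neighbours overlapped in old wild-type cells.

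The least abundant members in old footprints were the regulators and the near-copy genes. STD1 averaged 16.8 ± 0.788 TPM in old deletion cells and 15.7 ± 2.54 TPM in old wild-type cells, MTH1 7.35 ± 0.119 and 8.45 ± 1.27 TPM, and SNF3 2.97 ± 0.653 and 3.11 ± 1.56 TPM (SD, n = 2 each). HXT5 had 18.0 ± 1.24 and 21.4 ± 3.16 TPM, and HXT7 9.81 ± 2.60 and 18.2 ± 3.56 TPM in these strains. HXT6 was last with 1.30 ± 0.976 TPM in old deletion cells and 1.16 ± 0.576 TPM in old wild-type cells, from 3 to 11 counts per library.

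Young cells had no fixed order, because the replicates disagreed. In young mRNA, HXT4 averaged 214 ± 174 TPM and HXT3 210 ± 40.9 TPM in deletion cells, and HXT3 averaged 145 ± 21.4 TPM and HXT4 118 ± 88.4 TPM in wild-type cells (SD, n = 2 each). HXT7 averaged 73.1 ± 72.3 TPM in young deletion mRNA and 82.9 ± 74.8 TPM in young wild-type mRNA. The SD of HXT4 and HXT7 was nearly as large as their mean, so their place among HXT1, HXT2 and HXT3 in young cells was not settled by these libraries.

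As a share of the summed TPM of the 7 transporters, HXT3 held 61.6% of the mRNA in the single old deletion library and 35.4 ± 18.4% in young deletion cells (SD, n = 2). In wild type it held 51.7 ± 1.73% in old cells and 32.0 ± 14.5% in young cells (SD, n = 2 each). HXT4 held 5.25% in the old deletion library and 30.0 ± 16.4% in young deletion cells, and 6.01 ± 1.11% in old and 22.5 ± 10.9% in young wild-type cells. In each strain the old shares of HXT3 lay above both young shares and those of HXT4 below both. HXT2 held a larger part of the footprints than of the mRNA in every group: 35.9 ± 3.74% against 20.8% in old deletion cells, and 41.8 ± 0.387% against 26.8 ± 1.19% in old wild-type cells (SD, n = 2, except the single old deletion mRNA library).

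**Figure D2:**
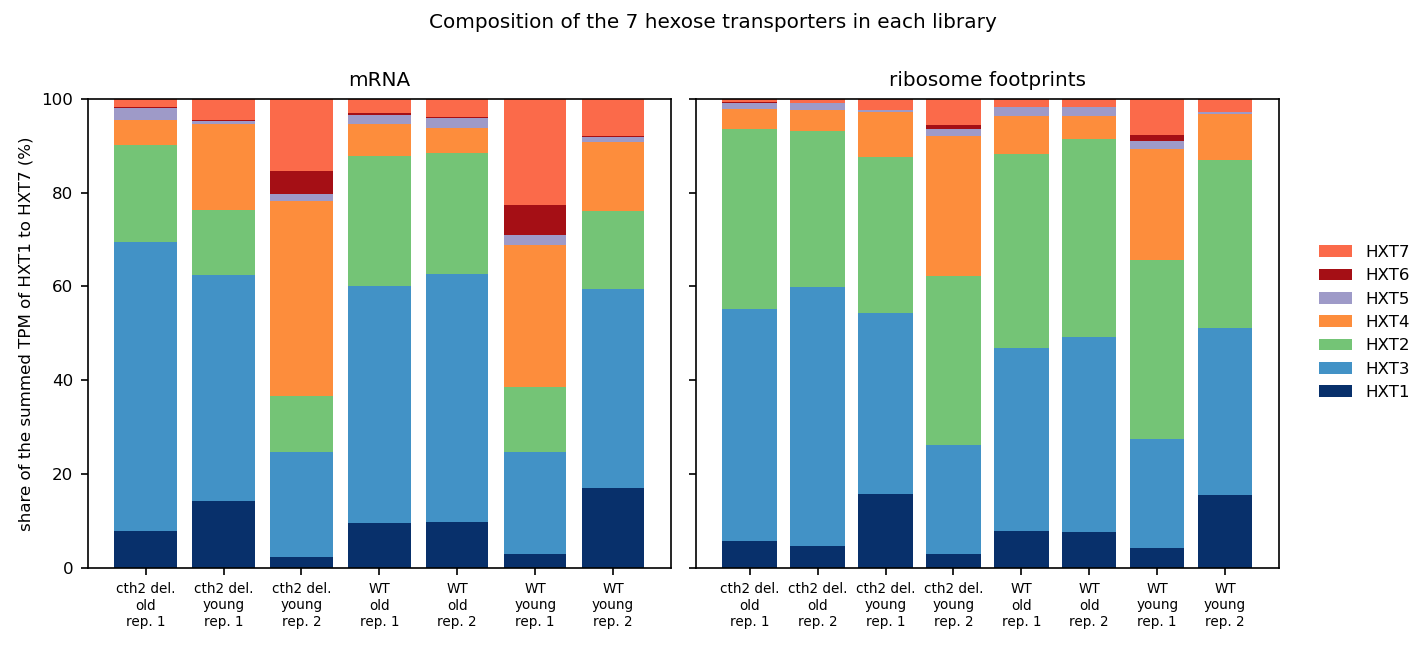
Share of each of the 7 HXT genes in their summed TPM (percent), for mRNA (left) and footprints (right), with 1 bar per library. HXT3 took 61.6% of the old deletion mRNA and 50.5% and 53.0% of the old wild-type mRNA, while deletion young replicate 2 and wild-type young replicate 1 had large HXT4 and HXT7 parts.

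The summed TPM of the 7 genes was 1290 ± 4.83 in old and 1032 ± 365 in young deletion footprints, and 1111 ± 221 in old and 739 ± 214 in young wild-type footprints (SD, n = 2 each). In mRNA it was 1101 in the old deletion library and 652 ± 223 in young deletion cells, and 913 ± 107 in old and 489 ± 155 in young wild-type cells. In TPM, the old and young sums overlapped in the footprints of the deletion strain and were apart in the other pairs. TPM was scaled to the total of each library, whereas the CPM and the tests used TMM library sizes. These scales can differ in direction. HXT2 in deletion footprints averaged 463 TPM in old and 361 TPM in young cells, but 685 CPM in old and 724 CPM in young cells. Age differences in these sums can thus depend on the scaling, and they were not tested. These are bulk samples, in which fewer cells of a type and less RNA per cell cannot be told apart.

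The young libraries of each strain held opposite transporter programmes. HXT1 had 198 and 46.4 CPM (scaled by TMM) in the mRNA of deletion young replicates 1 and 2, and 47.7 and 169 CPM in wild-type young replicates 1 and 2. HXT4 ran the other way, with 261 and 840 CPM in deletion young replicates 1 and 2 and 481 and 148 CPM in wild-type young replicates 1 and 2. Deletion replicate 2 and wild-type replicate 1 were thus low in HXT1 and high in HXT4, and the other young library of each strain was high in HXT1 and low in HXT4.

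HXT6, HXT7, HXT5, MTH1 and SNF3 went with HXT4 in young mRNA, and STD1 went with HXT1. HXT7 had 62.2 and 306 CPM in deletion young replicates 1 and 2, and 358 and 78.4 CPM in wild-type young replicates 1 and 2. HXT6 had 2.79 and 98.8 CPM in the deletion replicates and 100 and 3.09 CPM in the wild-type replicates, that is 9 and 311 counts and 320 and 14 counts. MTH1 had 20.4 and 70.5 CPM in the deletion replicates and 33.9 and 8.62 CPM in the wild-type replicates. In each of these genes the same pair of libraries, deletion replicate 2 and wild-type replicate 1, was the high one within its strain.

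The contrast between replicates was nearly the same size in both strains. Taken as deletion replicate 2 minus 1 and as wild-type replicate 1 minus 2, the log2 difference in mRNA was -2.08 and -1.82 for HXT1, 1.69 and 1.70 for HXT4, 2.29 and 2.18 for HXT7, and 4.89 and 4.79 for HXT6. It was 1.64 and 1.57 for HXT5, 1.76 and 1.91 for MTH1, 0.63 and 0.91 for SNF3, and -0.79 and -0.86 for STD1. Among 5391 genes, at least 98.0% had a smaller absolute difference than HXT1, HXT4, HXT5, HXT6, HXT7 or MTH1 in each strain, whereas HXT3 (-0.60 and -0.29) and HXT2 (0.29 and 0.40) were not at that extreme, with 44.9% to 75.6% of genes below them.

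Footprint libraries of the same replicate numbers showed the same split. HXT1 had 263 and 79.0 CPM in deletion young replicates 1 and 2, and 77.8 and 190 CPM in wild-type young replicates 1 and 2. HXT5, the carrier of slowly growing cells, had 4.95 and 37.6 CPM in the deletion replicates and 32.4 and 4.18 CPM in the wild-type replicates. HXT3 footprints, in contrast, hardly differed, with 637 and 621 CPM in the deletion replicates and 422 and 432 CPM in the wild-type replicates. The old libraries of a group lay close together: the largest absolute log2 difference between old replicates was 0.44 in mRNA, for HXT7, and among footprints it was 1.32, for HXT6 in the deletion strain, which rested on 6 and 3 counts.

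**Figure D3:**
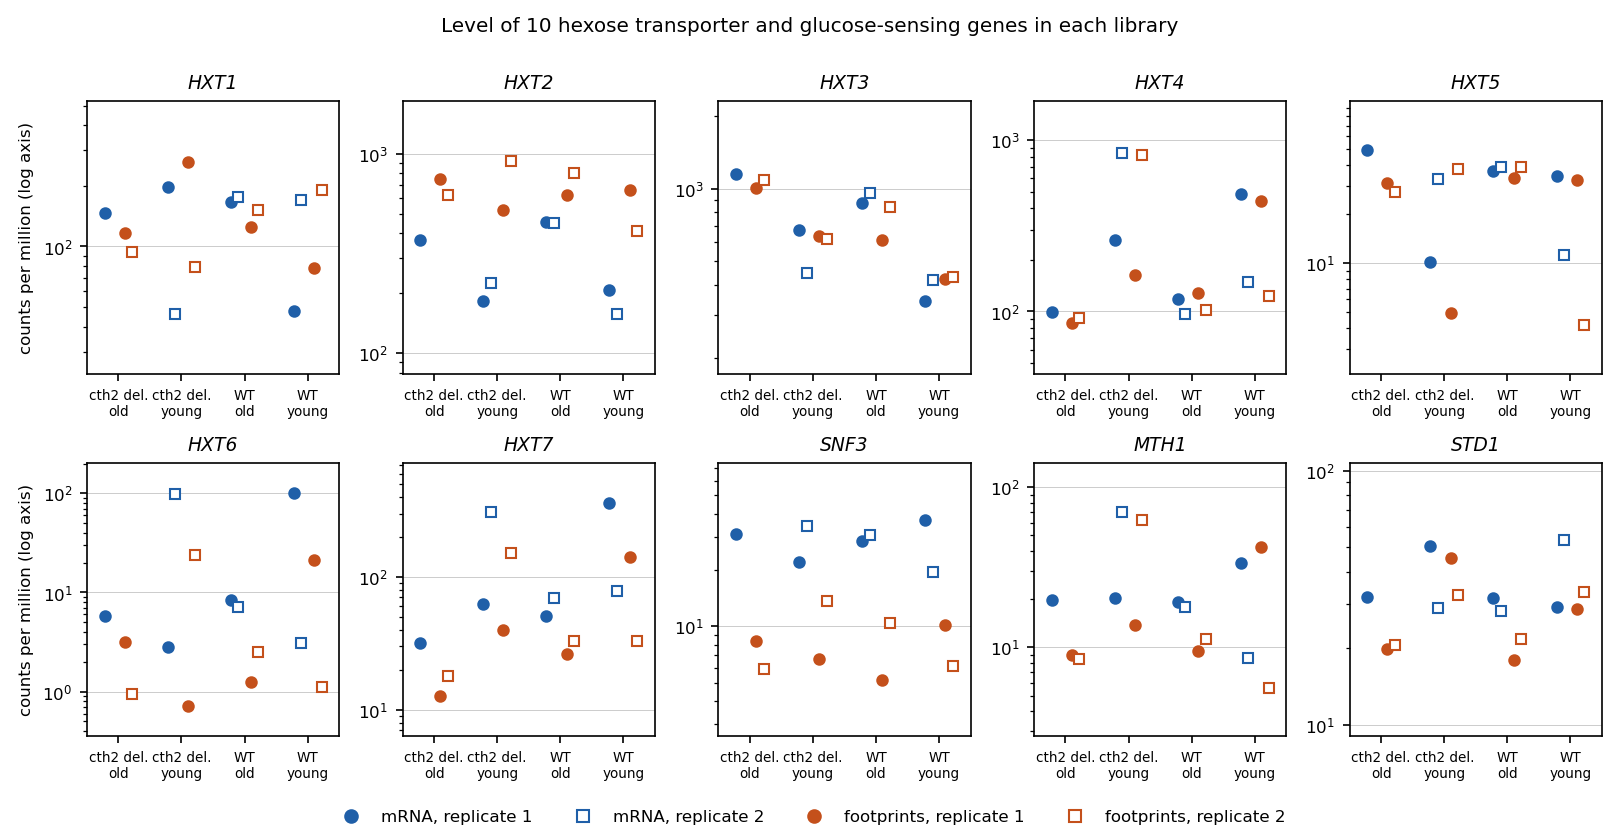
CPM (log axis, scaled by TMM) of each gene in each library, with mRNA in blue, footprints in orange, replicate 1 as filled circles and replicate 2 as open squares. The young replicates of each strain are far apart in HXT1, HXT4, HXT5, HXT6, HXT7 and MTH1 and in opposite order in the 2 strains, while the HXT3 footprints of young replicates nearly coincide.

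Across all 15 libraries, centred within each assay, HXT4 and HXT7 correlated at r = 0.92, HXT4 and MTH1 at r = 0.88, HXT6 and MTH1 at r = 0.86, and HXT1 and HXT6 at r = -0.88. HXT3 ran against HXT7 (r = -0.75) and HXT4 (r = -0.65), was only weakly related to HXT1 (r = 0.38), and was closest to HXT2 (r = 0.67). These coefficients describe 15 libraries that share lysates between assays, and they include the young libraries that stood apart. The genes with the most Rgt1 matches, HXT1 and HXT3, were thus only weakly related in level.

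Old and young cells were compared in mRNA and in its translation. Old cells had 30 h and young cells 2 h in culture, so replicative age and time in the medium cannot be told apart. Transcripts of the low-affinity carrier HXT3 and of HXT2 were higher in old than in young wild-type cells, and those of HXT4 and HXT7 were lower, but no member passed the test. HXT3 mRNA had 870 and 961 CPM in old and 341 and 418 CPM in young wild-type cells, a 2.41-fold difference (log2 fold change 1.27, SE 0.26, adjusted p = 0.0901, edgeR quasi-likelihood test with Benjamini-Hochberg adjustment over all genes). HXT2 mRNA had 454 and 449 CPM in old and 207 and 157 CPM in young wild-type cells (log2 fold change 1.31, SE 0.22, edgeR adjusted p = 0.0568). Old and young libraries did not overlap for either gene, and old HXT3 was higher than each young library alone, by 1.42 and 1.13 on the log2 scale, as was old HXT2, by 1.12 and 1.52.

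The calls on HXT2 and HXT3 changed with the tool. With edgeR 0 of 10 members passed in wild-type mRNA, where 0.951% of 5991 genes did, and 2 members (HXT2 and HXT3) had an unadjusted p under 0.05. DESeq2 called HXT2 (adjusted p = 0.000159) and HXT3 (adjusted p = 0.00209), and an edgeR fit to the 2 wild-type groups alone also called both (adjusted p = 0.0466 and 0.0447). Over all genes, DESeq2 called 260 of 5991 and that edgeR fit called 91 of 5840. Among 10 alternatives, adjusted p lay between 0.000159 and 0.513 for HXT2 and between 0.00209 and 0.622 for HXT3. In this comparison 3 members were higher without overlap (HXT2, HXT3 and HXT5), as were 30.1% of all genes, and 2 were lower without overlap (HXT4 and HXT7), as were 27.8%.

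HXT4 mRNA had 119 and 96.3 CPM in old and 481 and 148 CPM in young wild-type cells (log2 fold change -1.54, SE 0.69, edgeR adjusted p = 0.270). HXT7 mRNA had 50.7 and 68.9 CPM in old and 358 and 78.4 CPM in young wild-type cells (log2 fold change -1.86, SE 0.90, edgeR adjusted p = 0.295). Both were below each young library, but by unequal amounts: the log2 difference of old HXT4 was -2.16 to wild-type young replicate 1 and -0.46 to replicate 2, and that of old HXT7 was -2.59 and -0.40.

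The sign of the age change depended on the young library for 4 members in wild-type mRNA. Against young replicate 1 and replicate 2, the log2 difference of the old mean was -3.61 and 1.18 for HXT6, -0.86 and 1.05 for MTH1, -0.31 and 0.60 for SNF3, and 0.028 and -0.83 for STD1. Their fitted fold changes of -2.71 (HXT6), -0.17 (MTH1), 0.090 (SNF3) and -0.48 (STD1) average over these opposite values. HXT1 was 1.84 above replicate 1 and 0.019 above replicate 2 (log2 fold change 0.66, SE 0.76). HXT5 was 0.13 and 1.70 above them (log2 fold change 0.75, SE 0.64).

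In wild-type footprints the same comparison gave a smaller HXT3 difference and no call. HXT3 had 615 and 838 CPM in old and 422 and 432 CPM in young wild-type cells, a 1.70-fold difference (log2 fold change 0.77, SE 0.18, edgeR adjusted p = 0.0718). STD1 footprints had 18.0 and 21.7 CPM in old and 28.5 and 33.4 CPM in young cells (log2 fold change -0.64, SE 0.21, edgeR adjusted p = 0.150). HXT3 and STD1 were the 2 members with an unadjusted p under 0.05. HXT3 and HXT5 were higher in old cells without overlap, as were 30.7% of genes, and HXT7 and STD1 were lower, as were 27.3%.

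HXT2, whose mRNA was 2.48-fold higher in old wild-type cells, had 627 and 807 footprint CPM in old and 663 and 413 CPM in young wild-type cells, which overlap (log2 fold change 0.41, SE 0.33, edgeR adjusted p = 0.466). HXT4 (-1.29), HXT7 (-1.56), HXT6 (-2.58) and MTH1 (-1.21) had negative log2 fold changes with an SE of 0.78 to 1.59, which rested on young replicate 1. Against young replicates 1 and 2, the log2 difference of the old mean was -1.94 and -0.11 for HXT4, -2.24 and -0.17 for HXT7, -3.24 and 0.49 for HXT6, and -1.98 and 0.84 for MTH1. HXT5 was at 0.98 (SE 0.96), that is 0.15 and 2.95 above the young replicates, HXT1 at 0.048 (SE 0.59) and SNF3 at -0.068 (SE 0.49). Of the 10 members 0 passed, where 2.98% of 5308 genes did. DESeq2 called 1 member, HXT3, at an adjusted p of 0.0136, beside calls on 316 of 5308 genes.

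In footprints of the cth2 deletion, HXT3 rose and STD1, the Rgt1 corepressor gene, fell in old cells. HXT3 had 1005 and 1081 CPM in old and 637 and 621 CPM in young deletion cells, a 1.66-fold rise (log2 fold change 0.73, SE 0.18, edgeR adjusted p = 0.0354). STD1 had 20.0 and 20.7 CPM in old and 45.2 and 32.5 CPM in young deletion cells (log2 fold change -0.92, SE 0.22, edgeR adjusted p = 0.0349). Old and young libraries did not overlap for either gene, and HXT3 was above each young library by nearly the same amount, 0.71 and 0.75 on the log2 scale.

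These 2 calls among 10 members stood beside calls on 17.2% of all 5308 genes in the same comparison, 9.16% higher and 8.06% lower. They were also close to the threshold. The HXT3 call was lost when any of the 4 deletion footprint libraries was left out (adjusted p = 0.0546 and 0.102 without young replicates 1 and 2, and 0.153 and 0.195 without old replicates 1 and 2). The STD1 call was lost without young replicate 1 (0.0672) or without old replicate 1 or 2 (0.170 and 0.177), while the fold changes kept their direction. Fitting the deletion libraries alone gave adjusted p = 0.0681 for HXT3 and 0.0832 for STD1.

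HXT4, HXT7 and MTH1 had large negative fold changes in deletion footprints that did not pass. HXT4 had 86.1 and 92.1 CPM in old and 164 and 815 CPM in young deletion cells (log2 fold change -2.46, SE 0.83, edgeR adjusted p = 0.0844). HXT7 had 12.6 and 17.9 CPM in old and 39.9 and 151 CPM in young deletion cells (log2 fold change -2.64, SE 0.86, edgeR adjusted p = 0.0763). Neither overlapped, and both were called by DESeq2 (adjusted p = 0.00441 for HXT4 and 0.00297 for HXT7), which called 932 of 5308 genes. In edgeR the call on both turned on the young library. Without young replicate 1 the edgeR test called both (log2 fold changes -3.20 and -3.29, adjusted p = 0.0250 and 0.0362), and without young replicate 2 it called neither (-0.88 and -1.36, adjusted p = 0.424 and 0.342).

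MTH1 had 8.93 and 8.46 CPM in old and 13.8 and 62.1 CPM in young deletion cells (log2 fold change -2.17, SE 1.02, edgeR adjusted p = 0.173), again without overlap, and the old mean was -0.63 and -2.76 from young replicates 1 and 2. HXT1 (-0.70), HXT2 (-0.080), HXT5 (0.37) and SNF3 (-0.58) overlapped between ages. HXT6 had 6 and 3 counts in old and 2 and 127 counts in young deletion cells, so its fold change of -2.84 (SE 1.76) rests on young replicate 2. Of all genes 33.4% were higher and 31.9% lower in old deletion footprints without overlap, beside 1 member (HXT3) higher and 4 members (HXT4, HXT7, MTH1 and STD1) lower.

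**Figure D4:**
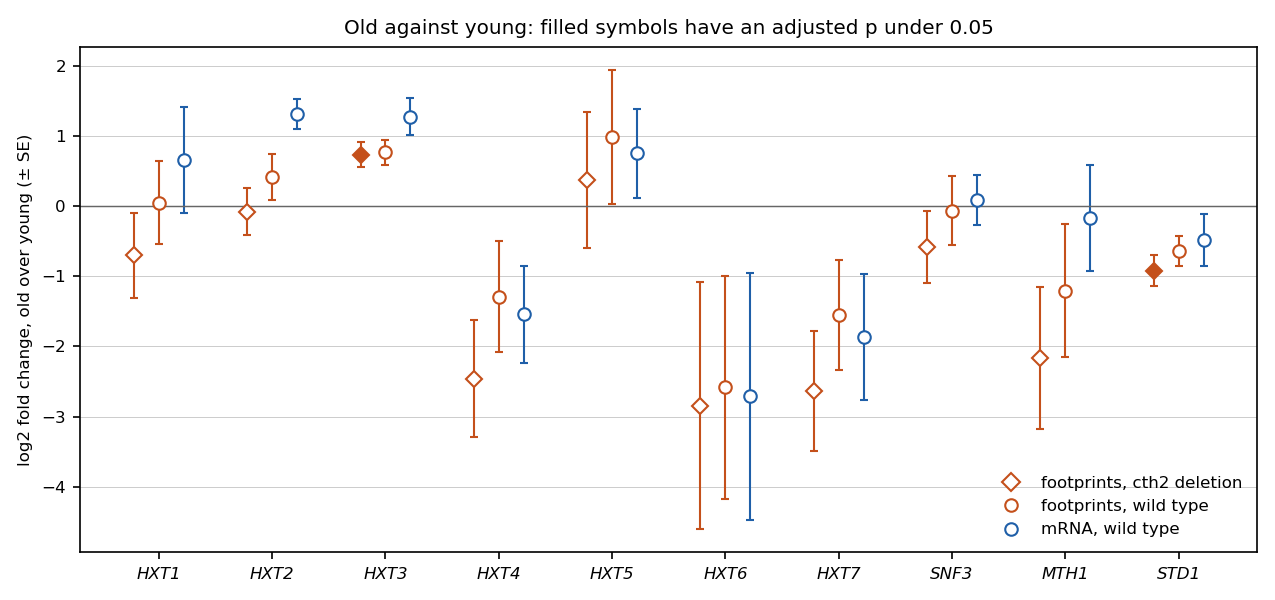
Log2 fold change of old over young cells for each gene, with bars of 1 SE, in deletion footprints (diamonds), wild-type footprints (orange circles) and wild-type mRNA (blue circles). HXT3 lies above 0 in all 3 comparisons with small errors, HXT4 and HXT7 lie below 0 in all 3 with large errors, and only HXT3 and STD1 in deletion footprints are filled, for an adjusted p under 0.05.

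The single old deletion RNA-seq library allows no test. In it HXT3 had 1148 CPM, against 675 and 445 CPM in young deletion cells, and HXT4 had 99.5 CPM, against 261 and 840 CPM. Its fitted log2 fold changes to young deletion cells were 1.04 for HXT3, 0.86 for HXT2, 1.19 for HXT5, -2.47 for HXT4, -2.52 for HXT7 and -1.19 for MTH1. For the first 5 of these genes the sign was the same against each young library in both strains. For MTH1 the log2 difference was -0.041 to young deletion replicate 1 and -1.80 to replicate 2, and its sign in wild-type mRNA turned with the young library.

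Whether the age change differed between strains was tested as an interaction in the footprints. The difference, deletion minus wild type, was negative in all 10 members, from -1.17 for HXT4 to -0.037 for HXT3, and none passed (adjusted p = 1.0 for each). With edgeR 0 of 5308 genes (0.0%) passed, 152 genes and 0 members had an unadjusted p under 0.05, and DESeq2 called 4 genes, none of them a member. The call on HXT3 and STD1 in the deletion and not in wild type is thus not a shown difference between the strains, and the interaction for HXT3 had an SE of 0.25.

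The deletion and the wild type were compared in young cells to ask what the loss of Cth2 does before ageing, and no member passed. HXT3 was the only member without overlap between strains in both assays. Its mRNA had 675 and 445 CPM in young deletion cells, against 341 and 418 CPM in young wild-type cells (log2 fold change 0.56, SE 0.26, edgeR adjusted p = 1.0). Its footprints had 637 and 621 CPM in young deletion cells, against 422 and 432 CPM in young wild-type cells (log2 fold change 0.56, SE 0.18, unadjusted p = 0.0156, edgeR adjusted p = 1.0).

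With edgeR 0 of 10 members and 0.0% of all genes passed in young mRNA and in young footprints, and DESeq2 called 0 and 1 genes with no member among them. At an unadjusted p under 0.05 there were 99 genes and 0 members in mRNA, and 92 genes and 1 member (HXT3) in footprints. Higher values in the deletion without overlap were found in 8.9% of genes in mRNA and in 11.0% in footprints, and HXT3 was the 1 such member in each. All 10 footprint fold changes were positive, from 0.15 for HXT7 to 0.81 for HXT4, beside a median over all genes of 0.023.

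Because the young replicate numbers ran opposite ways in the strains, the crossed pairs are also given. Deletion replicate 2 set beside wild-type replicate 1, and deletion replicate 1 set beside wild-type replicate 2, differed in MTH1 mRNA by 1.04 and 1.19 on the log2 scale, and in MTH1 footprints by 0.54 and 1.23. HXT4 differed by 0.80 and 0.82 in mRNA and by 0.89 and 0.41 in footprints, and HXT3 by 0.38 and 0.69 in mRNA and by 0.56 and 0.56 in footprints. HXT2 differed by 0.11 and 0.22 in mRNA and by 0.47 and 0.35 in footprints. MTH1, HXT4, HXT3 and HXT2 were thus higher in the deletion library of every crossed pair. The other 6 members differed by -0.41 to 0.47 in these pairs, and HXT1, HXT5, HXT6, HXT7, SNF3 and STD1 took both signs. The SD of such differences over all genes was 0.29 to 0.36. This pairing was chosen after the values were seen, and it is a description.

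**Figure D5:**
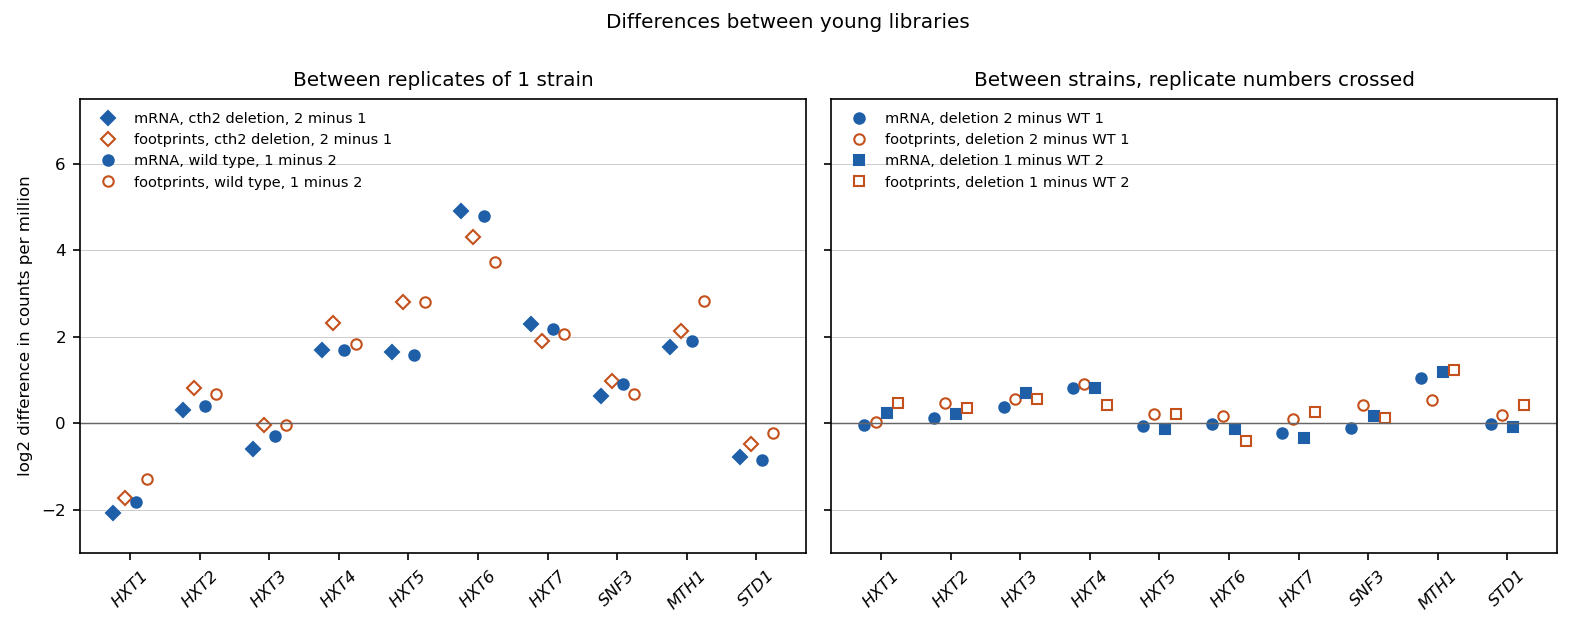
Log2 differences in CPM between young libraries. The left panel shows the replicates of each strain, deletion 2 minus 1 and wild type 1 minus 2, with HXT6 near 5 in mRNA and HXT1 near -2, and the right panel shows deletion minus wild type in crossed pairs, where MTH1, HXT4, HXT3 and HXT2 lie above 0 in all 4 pairs and the other genes lie on both sides of 0.

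HXT4 was the only member with the letters TATTTAT, the core of the AU-rich elements that Cth2 binds, within 300 bases after its stop codon. The match lies at bases 84 to 90 after the stop codon and is in capitals here.
HXT4: atgaaatataTATTTATgatttaatag
The same letters followed 17.1% of 6027 genes within 300 bases. The HXT4 difference between strains in young cells did not pass the test, and its fold change reversed when deletion young replicate 2 was left out (-0.27 in mRNA and -0.78 in footprints, instead of 0.81 and 0.81). In the crossed pairs, which hold both kinds of young library, HXT4 was higher in the deletion in all 4, as given above. So were MTH1, HXT3 and HXT2, which lack the match. An edgeR block of that pairing called HXT4 in both assays. The block was built from the split seen in these same libraries, so its calls are a description and no test. In old cells the HXT4 log2 fold change, deletion against wild type, was -0.36 in footprints (SE 0.80). It was -0.11 in mRNA, from 1 deletion library. A part of Cth2 in these differences was not tested.

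In old cells the strains were compared in footprints, where 0 of 10 members and 0.0% of 5308 genes passed with edgeR. HXT3 had 1005 and 1081 CPM in old deletion cells, against 615 and 838 CPM in old wild-type cells (log2 fold change 0.52, SE 0.18, unadjusted p = 0.0208, adjusted p = 0.854). HXT7 had 12.6 and 17.9 CPM in old deletion cells, against 26.1 and 33.0 CPM in old wild-type cells (log2 fold change -0.93, SE 0.86, adjusted p = 1.0). At an unadjusted p under 0.05 there were 270 genes and 1 member (HXT3), and DESeq2 called 22 genes and no member.

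The test on old cells turned on which libraries set the spread. Old footprint libraries alone had a biological coefficient of variation of 8.17%, young ones alone had 29.5%, and the fit to all footprint libraries had 21.5%. Fitted alone, the old libraries called 323 genes, where the edgeR fit to all footprint libraries called 0 of 5308. HXT3 (log2 fold change 0.52, edgeR adjusted p = 0.00854) and HXT7 (log2 fold change -0.90, edgeR adjusted p = 0.00913) were among the 323. The number of genes tested in that fit is not given here, so the calls on members have no exact share of all genes beside them. Without overlap HXT3 was higher, as were 24.5% of genes, and HXT1, HXT4, HXT5, HXT7 and MTH1 were lower, as were 23.6% of genes, in old deletion cells. HXT1 had 116 and 93.3 CPM there, against 125 and 153 CPM in old wild-type cells.

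Footprints set against mRNA of the same replicate number, taken as 1 lysate, give the ribosome load per mRNA, called translational efficiency. HXT2 stood out: its log2 ratio of footprint to mRNA CPM was 1.01 in the single old and 1.52 and 2.03 in young deletion lysates, and 0.46 and 0.85 in old and 1.67 and 1.39 in young wild-type lysates. These ratios lay at percentiles 89.5 to 99.2 of 5391 genes in the 7 lysates. SNF3 was at the other end, at percentiles 7.03 to 23.2, with log2 ratios of -2.35 to -1.29.

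The HXT2 ratio of both old wild-type lysates was below that of both young wild-type lysates. HXT1 had log2 ratios of -0.42 and -0.21 in old and 0.70 and 0.17 in young wild-type lysates. HXT3 had -0.50 and -0.20 in old and 0.31 and 0.045 in young wild-type lysates. In the model over all 15 libraries, the fold change of translational efficiency in old against young wild-type cells was -0.87 for HXT2 (SE 0.40, edgeR adjusted p = 0.730), -0.60 for HXT1 and -0.49 for HXT3 (SE 0.32), on the log2 scale. With edgeR 0 of 10 members passed, as did 0.0661% of 6050 genes, 0 members had an unadjusted p under 0.05, and DESeq2 called 20 genes and no member.

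Aliquots of lysates served both assays, per the labels, which do not say which libraries share a lysate. With libraries of the same number taken as 1 lysate and the lysate as a block, the test called 3 members. HXT2 fell by 0.86 on the log2 scale (SE 0.17, edgeR adjusted p = 0.000384), HXT1 fell by 0.69 (SE 0.18, adjusted p = 0.0116) and HXT3 fell by 0.51 (SE 0.17, adjusted p = 0.0488) in old wild-type cells. The block raised the calls over all 6050 genes tested to 411 from 4. The deviations of old wild-type libraries of the same number correlated at only r = 0.13 between assays. The lower translational efficiency of HXT2 and HXT3 in old cells stood beside higher mRNA, so their footprints changed less than their mRNA. MTH1, at -0.86 with the block, did not pass (edgeR adjusted p = 0.120). In young cells, translational efficiency in the deletion against wild type ranged from -0.45 for MTH1 to 0.38 for HXT7, and 0 members and 0.0% of genes passed with edgeR, with 107 genes and 0 members at an unadjusted p under 0.05 and 0 calls by DESeq2.

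Other genes of glucose use were counted in fixed lists, chosen with earlier results of these data known. Of the 4 sugar kinase genes, 1 fell in old wild-type footprints, where 2.98% of all genes were called, and 2 fell in old deletion footprints, where 8.06% of all genes fell. HXK2, the main hexokinase on glucose and a partner of Mig1, had 1416 and 1341 CPM in old and 3649 and 4015 CPM in young deletion footprints (log2 fold change -1.48, SE 0.15, edgeR adjusted p = 0.00290). In wild-type footprints it had 1549 and 1431 CPM in old and 3170 and 3198 CPM in young cells (log2 fold change -1.10, SE 0.15, edgeR adjusted p = 0.0131). GLK1, the glucokinase gene, fell by 2.02 on the log2 scale in deletion footprints (SE 0.54, edgeR adjusted p = 0.0449). It had 1230 and 921 CPM in old libraries, and 2614 and 6123 CPM in young replicates 1 and 2, which were far apart.

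Of 13 tested genes repressed by glucose, 5 rose and 0 fell in old deletion footprints, beside 9.16% and 8.06% of all genes, and 2 rose and 0 fell in old wild-type footprints, beside calls on 2.98% of all genes. ICL1, the isocitrate lyase gene of the glyoxylate cycle, had 114 and 88.0 CPM in old and 2.83 and 13.7 CPM in young deletion footprints, and 103 and 103 CPM in old and 8.46 and 4.73 CPM in young wild-type footprints. Its log2 fold change was 3.49 (SE 0.55, edgeR adjusted p = 0.0130) in the deletion and 3.96 (SE 0.57, adjusted p = 0.0202) in wild type. MLS1, the malate synthase gene, rose by 1.77 and 2.72, and ADH2 and ADR1 rose by 2.14 and 1.83 in the deletion and did not pass in wild type, a difference between strains that the interaction test did not call. In wild-type mRNA 1 of 14 rose, ADH2 (log2 fold change 1.53, SE 0.24, edgeR adjusted p = 0.0478), beside 0.951% of all genes.

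Of the 5 other genes of the Snf3 and Rgt1 route, 0 passed in wild-type mRNA or wild-type footprints, and 1 fell in deletion footprints: YCK2, the casein kinase gene (log2 fold change -0.75, SE 0.14, edgeR adjusted p = 0.0196). With 17.2% of all genes called there, 1 of 5 is near the background. Of 15 genes of the Snf1 and Mig1 route, 1 rose in deletion footprints (ELM1, a kinase that activates Snf1, 1.23) and 3 fell (CYC8, the corepressor that works with Tup1, -1.13, GAL83, -0.69, and SNF4, -0.49, Snf1 complex subunits), again beside 17.2% of all genes. Of 12 tested genes of the cAMP route, those called there included PDE2, a phosphodiesterase gene, which rose (log2 fold change 1.51). RAS2 and BCY1 fell (-1.24 each), once more beside calls on 17.2% of all genes.

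Of the 10 remaining sugar transporter genes, from HXT8 to GAL2, 7 were tested in mRNA and 1 in footprints, and 8 had a library with 0 counts. HXT10 passed in deletion footprints from only 8 and 7 counts in old and 1 and 0 counts in young libraries, too few for a fold. Over these lists, no gene passed in a comparison of strains, in the interaction or in translational efficiency.

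Footprints of daughter-cell marker genes moved with age in the same deletion libraries in which HXT3 and STD1 were called, and their mRNA moved less. Of 10 daughter-specific genes, 6 fell and 0 rose in old deletion footprints, beside 8.06% and 9.16% of all genes, led by PRY3 (log2 fold change -2.01, SE 0.14, edgeR adjusted p = 0.000917) and EGT2 (-1.85, SE 0.24, adjusted p = 0.00674), and 0 of 10 passed in wild-type mRNA or footprints. Their summed level was 851 and 1001 CPM in old and 2147 and 2595 CPM in young deletion footprints, and 1845 and 1977 CPM in old and 1628 and 2273 CPM in young wild-type footprints. In deletion mRNA the sum was 1154 CPM in the single old library and 1399 and 1312 CPM in young libraries. There PRY3 was higher in the old library, with 133 CPM against 82.6 and 82.9 CPM. EGT2 had 116 CPM in the old library, between its young values of 134 and 102 CPM. None of the 10 was at 0 in any library, and their part in the results on the transporter genes was not tested.

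The genes whose level followed each member most closely were found by Pearson correlation of log2 CPM over the 15 libraries, centred within each assay, among 5118 genes. They were LIA1, DPH5 and FSF1 for HXT1 (r = 0.97, 0.96 and 0.95), and PIG2, GRX2 and RIP1 for HXT4 (r = 0.98 each). MDG1, YSC84 and GSY2 were nearest to HXT7 (r = 0.98 each), FMS1, CMK2 and RCN2 to HXT6 (r = 0.97, 0.96 and 0.96), and GPA2, APE1 and TDA1 to MTH1 (r = 0.95 each). CAT8, SRX1 and LEE1 were nearest to HXT5 (r = 0.96, 0.95 and 0.95), and DED81, CDC60 and MES1, 3 aminoacyl-tRNA synthetase genes, to STD1 (r = 0.95, 0.95 and 0.94). For HXT3 they were YBR238C, BGL2 and DCK1 (r = 0.93 each), for HXT2 GAP1, CYC3 and GIS3 (r = 0.90, 0.88 and 0.88), and for SNF3 EDC2, GID8 and LPL1 (r = 0.89, 0.87 and 0.87). The likeness is over libraries that share lysates, the young ones that stood apart included.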

How the data were processed

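Messenger RNA and ribosome footprints were counted per gene in 15 libraries, 7 of RNA-seq and 8 of ribosome profiling. Per the file headers, the authors deposited, per gene and library, a count that is raw and the gene's length. Per the submitters' processing notes, cutadapt 3.4, Bowtie 1.1.2, STAR 2.7.9a and the R64 build were used, and the counting program, its treatment of reads that match several genes and its use of strand are not given in the sources used here. Samples were grouped by the strain, age and library type in the labels. The members and lists were chosen with earlier results of these data known. Every member was described, as were the 3 genes most like each and up to 4 called genes per list and comparison. A result of the cAMP list is not reported here.

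In this re-analysis, counts were scaled by TMM and tested with edgeR 4.0.16 in R 4.3.3 (filterByExpr, robust quasi-likelihood fit, 1 mean per group), for 5991 genes in RNA-seq, 5308 in footprints and 6050 in the joint fit for translational efficiency. P-values were adjusted by Benjamini-Hochberg over all genes tested and called under 0.05, and the SE is the absolute log2 fold change over the root of the F statistic. Scripts were tested on simulated data. CPM used TMM library sizes, TPM the deposited lengths, and log2 CPM a prior count of 2. Precision is set by the 1629345 to 6198680 counts per library and by 2 libraries per group. The biological coefficient of variation was 22.7% in RNA-seq and 21.5% in footprints. DESeq2 1.42.0, other scaling, no filter, blocks, single groups, summed HXT6 and HXT7 counts, and leaving out each library were the alternatives.

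RNA-seq and footprint libraries of the same group and number were taken as 1 lysate, since the labels say that aliquots of lysates served both assays, without saying which libraries share one. The deviations of same-numbered libraries correlated at r = 0.71 in young wild-type, 0.76 in young deletion and 0.13 in old wild-type cells over 5391 genes. Coding and upstream sequences were read from the R64 RefSeq genome, and 6035 of the 7127 identifiers matched it.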

Additional observations from a re-analysis of the deposited data

How the results depend on the processing

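Under the alternatives to the edgeR fits, the number of members called in wild-type mRNA (0) was 1 with no filter on low counts, 2 with DESeq2 and 2 with only the groups compared. Over all genes these fits called 68 of 6726, 260 of 5991 and 91 of 5840. In wild-type footprints (0) the number of members was 1 with DESeq2, beside 316 of 5308 genes. In old against young deletion footprints (2) it was 4 with DESeq2, beside 932 of 5308 genes. There it was 0 with the replicate block, 0 with only the groups compared, and 0 to 2 when 1 library was left out. In old deletion against old wild-type footprints (0) it was 2 with only the groups compared. In translational efficiency of old against young wild-type cells (0) it was 3 with the lysate as replicate block. Calls over all genes in these last fits are given above.

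Replicate numbers did not pair samples across groups: the correlation of deviations was -0.0072 between old and young wild-type mRNA, -0.16 and -0.18 between ages in wild-type and deletion footprints, and -0.026 between old strains. With the replicate block the adjusted p was 0.0723 for HXT3 and 0.0779 for STD1 in deletion footprints. Where the correlation was below -0.1, a crossed pairing was chosen after seeing the data, so its calls describe and do not test. Between strains it called 2 members in young mRNA, where 23 of 5991 genes were called. Between ages it called 1 member in wild-type footprints, where 451 of 5308 genes were called. Its counts in young footprints between strains and in deletion footprints between ages are not given here.

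Leaving out 1 library turned the sign of several log2 fold changes; the cause was not tested. In wild-type mRNA by age the range was -3.69 to 1.31 for HXT6, -0.87 to 1.10 for MTH1, -0.84 to 0.031 for STD1 and -0.31 to 0.61 for SNF3. In wild-type footprints by age it was -0.46 to 0.83 for HXT1, -3.52 to 0.71 for HXT6, -2.03 to 0.90 for MTH1 and -0.65 to 0.34 for SNF3. In deletion footprints by age it was -1.34 to 0.40 for HXT1, -0.43 to 0.37 for HXT2, -0.38 to 2.54 for HXT5, -3.77 to 1.31 for HXT6 and -0.97 to 0.055 for SNF3. Between young strains it was -0.027 to 0.38 (HXT2), -0.27 to 1.90 (HXT4) and -0.026 to 2.39 (MTH1) in mRNA, and -0.030 to 0.81 (HXT2), -0.78 to 2.00 (HXT4) and -0.80 to 2.81 (MTH1) in footprints. The HXT4 interaction ranged from -2.36 to 0.42, and the translational efficiency of old against young wild-type cells from -1.84 to 0.16 for HXT1 and from -2.32 to 1.03 for MTH1. HXT3 kept its sign in the age and strain fits and in the wild-type translational efficiency by age. The refits of its interaction are not given here, and the SE of 0.25 was larger than the value of -0.037. The share of HXT2 in old wild-type footprints was 40.6% when counts were not divided by length. With 2 libraries per group, and 3 to 11 counts for HXT6 in old footprints, the data limit what can be said of the rarer members. The fit to only the groups compared adds nothing for the interaction, which uses every footprint group.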
